A study of Arabidopsis thaliana with 63 samples.

Results

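The loci described here carry gene numbers in 5 runs that flank the centromeres of Arabidopsis thaliana: AT1G37500 to AT1G43999, AT2G07700 to AT2G13500, AT3G30800 to AT3G43500, AT4G05300 to AT4G08300 and AT5G28000 to AT5G36500. Both deposited expression tables hold 1230 of them, out of 26870 gene loci and 29961 features in all. They comprise 377 protein-coding loci, 628 TE genes (the name used here for loci that RefSeq lists as pseudogenes, the class that holds the genes of transposable elements) and 225 other loci, of which 142 are long non-coding RNAs and 57 are transcribed pseudogenes. TE genes therefore made up 51.1% of these loci, against 2.71% of the other gene loci of the tables.

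Total RNA of 10-day-old Col-0 seedlings was sequenced after depletion of ribosomal RNA, with 3 libraries for each of 3 genotypes. WT was the Col-0 wild type. The h2a.w-1 plants carry T-DNA insertions in all the H2A.W genes, HTA6 (hta6-1), HTA7 and HTA12, and also a duplicated and moved segment of the right arm of chromosome 1 that comes with hta6-1. The h2a.w-2 plants carry the same hta7 and hta12 insertions and, in place of hta6-1, a CRISPR-Cas9 allele, hta6-2, in which 1 base is inserted. Libraries are called A, B and C here in the order of their size factors, because the deposited columns hold genotype means, from which the reads of each library were recovered.

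Pericentromeric heterochromatin is densely packed, rich in transposable elements and poor in genes. In plants its nucleosomes carry H2A.W, a histone H2A variant with an extended C-terminal tail, together with dimethylated H3K9 and DNA methylation in the CG, CHG and CHH contexts. The enzymes MET1, CMT3 and CMT2 and the remodeller DDM1 maintain this methylation, and most TE genes in such regions give little or no stable transcript in seedlings. Genes with housekeeping or metabolic roles also lie in these regions and are transcribed there.

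SADHU3-2 and AT5G28335 were the TE genes called in both mutants, AT5G35935 was called between the mutants, and AT3G42806 was the most abundant TE gene in WT. The sequence around their annotated starts is shown for that reason, from 250 bases before to 50 after, 5′ to 3′ on the strand of the locus, from RefSeq for TAIR10.1. Capitals mark CG dinucleotides, the sites of the methylation that MET1 maintains. The annotated start of a TE gene is that of the element and need not be a start of transcription.
SADHU3-2 (chr3:14750245-14750544, minus strand): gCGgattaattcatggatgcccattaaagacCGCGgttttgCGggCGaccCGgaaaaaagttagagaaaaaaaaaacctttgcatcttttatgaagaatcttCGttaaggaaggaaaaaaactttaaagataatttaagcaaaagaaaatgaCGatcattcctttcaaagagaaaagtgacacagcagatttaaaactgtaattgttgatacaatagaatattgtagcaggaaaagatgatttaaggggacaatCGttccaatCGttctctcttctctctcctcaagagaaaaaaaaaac
AT5G28335 (chr5:10313537-10313836, minus strand): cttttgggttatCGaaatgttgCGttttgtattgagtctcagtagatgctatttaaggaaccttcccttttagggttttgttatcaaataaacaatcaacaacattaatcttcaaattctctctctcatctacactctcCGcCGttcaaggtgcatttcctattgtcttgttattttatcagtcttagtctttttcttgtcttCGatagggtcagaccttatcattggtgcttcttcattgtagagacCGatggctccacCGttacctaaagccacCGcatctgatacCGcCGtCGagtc
AT5G35935 (chr5:14089842-14090141, minus strand): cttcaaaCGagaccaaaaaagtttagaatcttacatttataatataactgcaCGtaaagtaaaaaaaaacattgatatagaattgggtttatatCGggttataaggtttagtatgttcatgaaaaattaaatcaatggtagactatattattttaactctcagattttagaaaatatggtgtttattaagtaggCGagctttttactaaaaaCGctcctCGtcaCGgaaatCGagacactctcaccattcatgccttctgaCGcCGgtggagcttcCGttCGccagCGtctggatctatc
AT3G42806 (chr3:14913758-14914057, plus strand): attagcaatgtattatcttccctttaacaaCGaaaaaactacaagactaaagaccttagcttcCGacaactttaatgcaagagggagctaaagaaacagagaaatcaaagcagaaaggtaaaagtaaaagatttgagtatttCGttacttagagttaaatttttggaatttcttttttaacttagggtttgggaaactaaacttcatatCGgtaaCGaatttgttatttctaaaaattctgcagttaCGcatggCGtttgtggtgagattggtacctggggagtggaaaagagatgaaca
These windows hold 10, 11, 13 and 7 CG dinucleotides, on either strand, since the motif CG is its own complement and its matches cannot overlap. The median over the TE genes of the runs was 7.0 and over all gene loci 6.0, and at least 1 was found in 99.2% of the TE gene windows and in 98.2% of those of all gene loci.

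Locus number followed chromosome position for most loci but not for all. In the TAIR10.1 assembly the protein-coding and TE gene loci of the runs form 1 block per chromosome, at 14243165 to 16705876 on chromosome 1, 3240494 to 5621243 on chromosome 2, 12479457 to 15375447 on chromosome 3, 2710556 to 5248394 on chromosome 4 and 10020653 to 14305182 on chromosome 5. Of the 1230 loci, 1072 lay inside these blocks and 158 outside, 86 of them on chromosome 2, 71 on chromosome 4 and 1 on chromosome 3. The outlying loci were 139 long non-coding RNAs, 12 small nucleolar RNAs, 5 antisense RNAs, 1 small nuclear RNA and 1 protein-coding gene, so their numbers do not mark a pericentromeric position. Only 9 of these 158 had enough reads for a test, and limma voom called none in any comparison, with 0 at an unadjusted p under 0.05 against WT in either mutant and 1 between the mutants. Every call given below concerns a locus inside the blocks.

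The recovered reads ranged from 5812579 to 9391308 per library, and replicate libraries differed by more than sampling noise, with chi-square per degree of freedom from 2.91 to 14.0 over all pairs. The labels do not say whether replicates came from separate cultures, so p-values measure the spread between these libraries. HTA6 and HTA7 fell in both mutants, with HTA6 at 65, 54 and 42 reads in h2a.w-1 and 312, 274 and 136 in libraries labelled h2a.w-2, against 949, 902 and 751 in WT. HTA12 had 97, 113 and 86 reads in WT, 19, 19 and 19 in h2a.w-1 and 28, 107 and 17 in libraries labelled h2a.w-2. Library B thus goes against its label for HTA12, and AT5G02570, which overlaps HTA12, may share its reads, so that h2a.w-2 stands below for the libraries labelled so. Of 6 tissue markers, the 4 with recovered reads in range of the test were detected in every library, and RBCS1A and CAB1, the highest shoot markers, were above the range in which reads could be recovered. LHCB2.1, a light-harvesting protein of the shoot, had a log2 fold change of 0.74 ± 0.18 (SE) in h2a.w-1 (limma voom adjusted p = 0.022), and PIP2;2, an aquaporin strong in roots, had -0.82 ± 0.21 (adjusted p = 0.031). In h2a.w-2 they stood at 0.01 ± 0.18 (adjusted p = 0.98) and 0.03 ± 0.22 (adjusted p = 0.96). The root-hair oxidase RHD2, at 268, 241 and 290 reads in WT, had 187, 253 and 146 in h2a.w-1 and 166, 96 and 49 in libraries labelled h2a.w-2, with log2 fold changes of -0.42 ± 0.26 (adjusted p = 0.31) and -1.27 ± 0.30 (adjusted p = 0.17). For TIP2;3, a root aquaporin of the vacuole, they were -0.80 ± 0.67 (adjusted p = 0.45) and -1.19 ± 0.76 (adjusted p = 0.47). The part of tissue make-up in the results below was not tested, and in bulk seedlings fewer cells of a type cannot be told apart from less RNA per cell.

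Most of the TE genes were at or near zero in WT. A normalized count here is a library's read number divided by its size factor. Of the 628 TE genes, 333 had no read in any WT library and another 253 had a mean WT normalized count above 0 and below 1, so that 93.3% stood below 1, against 81.0% of the TE genes elsewhere. Protein-coding loci of the runs were also lower than elsewhere: their median WT normalized count was 66.9 against 127, and 24.1% of them stood below 1 against 10.5%. In all, 62 loci (5.04%) had no read in any of the 9 libraries, including 43 TE genes, against 1.67% of the other gene loci. The authors had discarded reads without a single best position, which lowers the counts of TE genes with close copies.

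**Figure D1:**
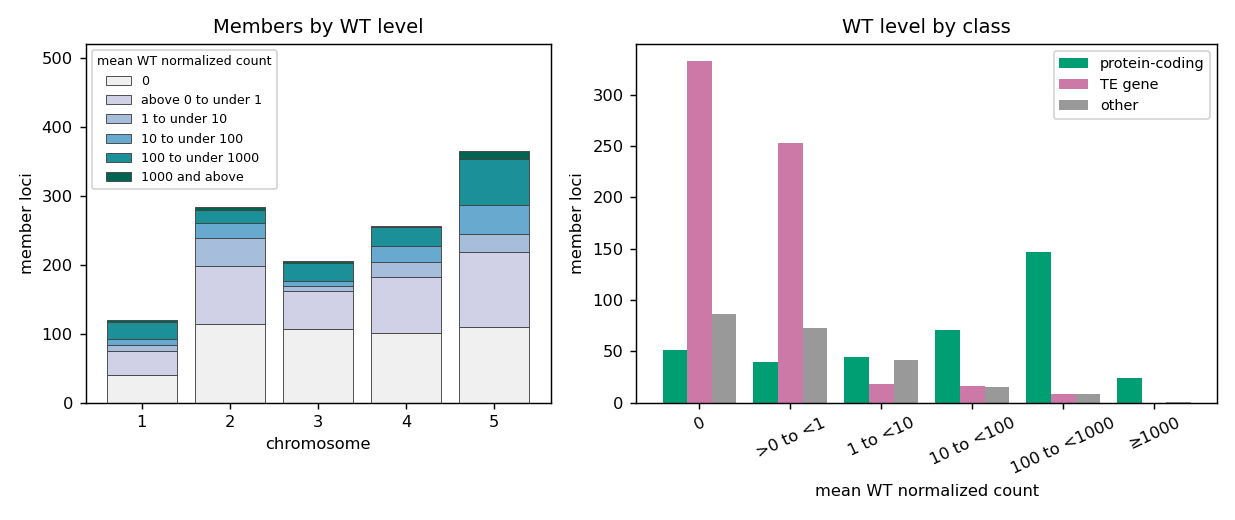
Number of member loci by chromosome, stacked by mean WT normalized count (left), and by WT level within each class (right). TE genes crowd the 2 lowest levels, with 333 at 0 and 253 below 1, while 147 protein-coding loci lie between 100 and 1000.

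The median WT normalized count of protein-coding loci was 198 on chromosome 1, 4.72 on chromosome 2, 83.9 on chromosome 3, 84.0 on chromosome 4 and 88.0 on chromosome 5. Chromosome 2 stood lowest, and 29 of its 63 protein-coding loci reached a normalized count of 10, against 108 of 162 on chromosome 5. TE genes at 10 or more were 2, 5, 2, 6 and 9 on chromosomes 1 to 5, out of 66, 115, 139, 126 and 182. Chromosome 3 held the largest number of TE genes without a WT read, 88.

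Per kilobase of exon, the polyubiquitin gene UBQ10 was the highest locus of the runs, at 8149.7 in WT on the scale of the authors' mean normalized counts, followed by RPL3A, a protein of the large ribosomal subunit, at 4439. Both were above the range in which reads could be recovered, so that only the authors' means are given for them. For UBQ10 these means were 17396 in WT and 15515 in h2a.w-1 in one table, and 16658 in WT and 20978 in h2a.w-2 in the other. For RPL3A they were 8071 and 7643, and 7732 and 7240. The next highest levels per kilobase were those of GS2, the plastid glutamine synthetase, at 3281, of AT5G28060, a ribosomal protein of the S24e family, at 3074, and of GAPB, a subunit of the Calvin cycle glyceraldehyde-3-phosphate dehydrogenase, at 2473.

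Among TE genes the transcript was held by very few loci. The 4 highest TE genes carried more than 50% of the summed WT normalized count of the class, and the 10 highest carried 83.3%. AT3G42806 was the first of them, with 783, 873 and 604 reads in WT, and SADHU1-1, a member of the Sadhu family of non-coding retroelements, was second with 740, 684 and 423. Per kilobase the order of these loci reversed, with 546 normalized counts for SADHU1-1 and 153 for AT3G42806. MUG8, a gene of the domesticated MUSTANG family, had 338, 404 and 254 WT reads.

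Of the 1230 loci, 296 had a mean normalized count of at least 10 over the 9 libraries and were tested, namely 244 protein-coding loci, 26 TE genes and 26 others. The 932 loci below this level, and the 2 without recovered reads, got no test. Because the filter uses all libraries, 13 tested loci with a WT level below 10 passed through the mutants and could hardly fail to be higher there. A locus was called at a limma voom adjusted p under 0.05 over all 19649 features tested and an absolute log2 fold change above 1. Both mutants were compared with the same WT libraries, so the values of the 2 comparisons are not independent.

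Against WT, 21 of the 296 tested loci were called in h2a.w-1, 9 higher and 12 lower. Over all features 1.58% were called higher and 2.76% lower, and 7.09% of these loci were called in either direction, against 4.35% of all features. The share was 5.65% for the 283 tested loci at 10 or more in WT. The median log2 fold change of the tested loci was 0.07, against -0.01 over all features. In libraries labelled h2a.w-2, 2 of the 296 loci were called higher and 0 lower, where the background was 0.132% and 0.0662%. At an unadjusted p under 0.05 in limma voom, 38 of the 296 loci were higher and 12 lower in h2a.w-2, where 7.12% of all features were higher and 6.95% lower, and limma with a mean trend also called 2 higher and 0 lower. Of the 283 tested loci at 10 or more in WT, 30 were higher and 12 lower at that p in h2a.w-2. In h2a.w-1, 50 of the 296 were higher and 32 lower at that p (42 and 32 of the 283). Over all features 15.6% were higher and 14.9% lower there. Between the mutants, 15 loci were called higher and 8 lower in libraries labelled h2a.w-2 than in h2a.w-1, against a background of 4.08% and 1.97%. Altogether 31 loci were called at least once, comprising 24 protein-coding loci, 5 TE genes and 2 transcribed pseudogenes, and 13 of them were called both in h2a.w-1 against WT and between the mutants. The counts depended on single libraries. Without library A of h2a.w-1, 9 loci were called in h2a.w-1 against WT and 14 between the mutants; without WT library C, 12 were called in h2a.w-1, and without WT library B 13. Without library C of h2a.w-2, 14 were called between the mutants. The 2 calls in h2a.w-2 became 0 without WT library A or without WT library C, 1 without WT library B or without library A or B of h2a.w-2, and 0 when only the WT and h2a.w-2 libraries were fitted.

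**Figure D2:**
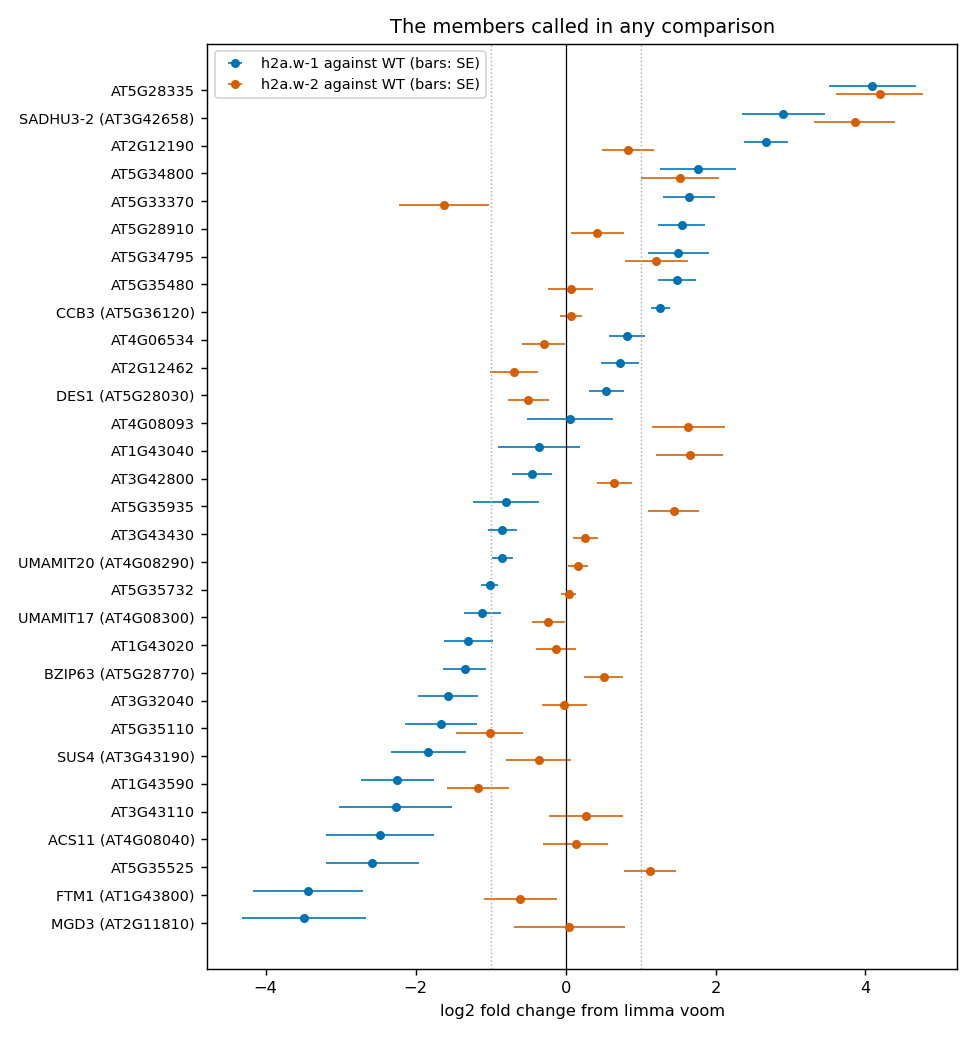
Log2 fold change against WT (horizontal axis, limma voom, bars show SE) of the 31 loci called in any comparison, for h2a.w-1 and for the libraries labelled h2a.w-2, which share the WT libraries. AT5G28335 and SADHU3-2 lie above 2 in both, and dotted lines mark the fold limit of 1.

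SADHU3-2 (AT3G42658, chromosome 3, 14749400 to 14750294), another non-coding Sadhu retroelement, was nearly silent in WT and transcribed in both mutants. It had 2, 13 and 2 reads in the WT libraries, 28, 44 and 28 in h2a.w-1 and 68, 59 and 49 in libraries labelled h2a.w-2. No mutant library overlapped the WT range, and the normalized counts were 5.08 ± 5.24 in WT, against 32.7 ± 8.94 in h2a.w-1 and 62.5 ± 7.05 in h2a.w-2 (SD, n = 3). The log2 fold change was 2.91 ± 0.56 (SE) in h2a.w-1 (limma voom adjusted p = 0.0095) and 3.86 ± 0.54 in h2a.w-2 (adjusted p = 0.022). The call in h2a.w-1 held in all alternatives, while in h2a.w-2 the adjusted p ranged from 0.0088 to 0.124 and the call was lost without WT library A, without WT library C and when only the WT and h2a.w-2 libraries were fitted. With a mean WT level below 10, SADHU3-2 passed the filter of the main fit only through the mutants, which limits what these p-values show. Between the mutants SADHU3-2 was higher in libraries labelled h2a.w-2 by 0.95 ± 0.29 on the log2 scale (adjusted p = 0.049), below the fold limit.

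At 5503 bases from SADHU3-2 lies CHR38, also called CLSY1, a remodeller of RNA-directed DNA methylation that helps to recruit RNA polymerase IV. It had 179, 190 and 114 reads in WT, 309, 268 and 262 in h2a.w-1 and 268, 252 and 173 in libraries labelled h2a.w-2. All mutant libraries lay above the WT libraries once scaled by size factors. The log2 fold change was 0.85 ± 0.11 (SE) in h2a.w-1 (limma voom adjusted p = 0.0018) and 0.68 ± 0.11 in h2a.w-2 (adjusted p = 0.036), both short of the fold limit of 1.

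AT5G28335 (chromosome 5, 10308601 to 10313586) was the one locus at or under 3 reads in every library of one genotype and at 10 or more in every library of another. It had 1, 1 and 0 reads in WT, 16, 13 and 25 in h2a.w-1 and 22, 19 and 10 in libraries labelled h2a.w-2. Against a floor of 3 reads per WT library it was at least 6.26-fold higher in h2a.w-1 and at least 5.97-fold higher in h2a.w-2. The limma voom adjusted p was 0.0030 in h2a.w-1 and 0.022 in h2a.w-2. The second call was lost without any one of the WT libraries, and without library A or B of h2a.w-2, with an adjusted p of up to 0.124. AT5G28335 also passed the filter only through the mutants, with the same limit on its p-values.

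A cluster of 3 neighbouring loci on chromosome 5, the TE genes AT5G34790 and AT5G34800 and the transcribed pseudogene AT5G34795 between them, was higher in every mutant library than in every WT library. AT5G34790 had 22, 29 and 11 reads in WT, 40, 32 and 46 in h2a.w-1 and 40, 47 and 38 in libraries labelled h2a.w-2. AT5G34795, which starts 1064 bases further on, had 6, 9 and 2 reads, then 18, 12 and 16, then 14, 13 and 7. AT5G34800 follows after 264 bases and had 3, 9 and 5 reads, then 18, 17 and 20, then 10, 21 and 14. AT5G34795 and AT5G34800 were called in h2a.w-1, with log2 fold changes of 1.51 ± 0.40 (SE) and 1.77 ± 0.50 (limma voom adjusted p = 0.034 and 0.042). The values in h2a.w-2 were 1.21 ± 0.42 and 1.53 ± 0.52 (adjusted p = 0.30 and 0.29). With counts this low the calls were fragile, since that of AT5G34800 was lost without any one of the WT or h2a.w-1 libraries and that of AT5G34795 without WT library A or C and in the fit of 6 libraries. AT5G34795 and AT5G34800 had a mean WT level below 10 and passed the filter only through the mutants.

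AT5G35935 (chromosome 5, 14083388 to 14089891) separated the mutants from each other. It had 89, 124 and 36 reads in WT, 34, 34 and 80 in h2a.w-1 and 226, 170 and 179 in libraries labelled h2a.w-2. All libraries labelled h2a.w-2 stood above all others, while those of h2a.w-1 and WT overlapped. The log2 difference between the mutants was 2.24 ± 0.40 (SE; limma voom adjusted p = 0.0051) and held in all alternatives, and the change against WT was 1.44 ± 0.35 in h2a.w-2 (adjusted p = 0.18).

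All h2a.w-1 libraries stood below all WT libraries for 3 tested TE genes, namely AT1G43590, AT3G42806 and AT5G35777, which is described further below. AT1G43590 had 31, 20 and 15 reads in WT, 3, 7 and 3 in h2a.w-1 and 14, 5 and 8 in libraries labelled h2a.w-2, with a log2 fold change of -2.24 ± 0.49 (SE) in h2a.w-1 (limma voom adjusted p = 0.015; 0.078 without library A of h2a.w-1). The libraries labelled h2a.w-2 also all stood below WT for AT1G43590 once scaled by size factors, without passing the adjusted p. AT3G42806, the most abundant TE gene, had 376, 383 and 358 reads in h2a.w-1 and 750, 694 and 555 in libraries labelled h2a.w-2, against the WT reads given above. Its log2 fold change of -0.97 ± 0.12 in h2a.w-1 (adjusted p = 0.0017) was just short of the fold limit, and in h2a.w-2 it was -0.01 ± 0.12.

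AT5G35777, a TE gene picked out after its values were seen, varied widely among replicates. It had 33, 74 and 56 reads in WT, 14, 23 and 6 in h2a.w-1 and 2, 104 and 100 in libraries labelled h2a.w-2. Library A of h2a.w-2 thus stood below all libraries of the other genotypes, and the other two above them. All h2a.w-1 libraries stood below all WT libraries.

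**Figure D3:**
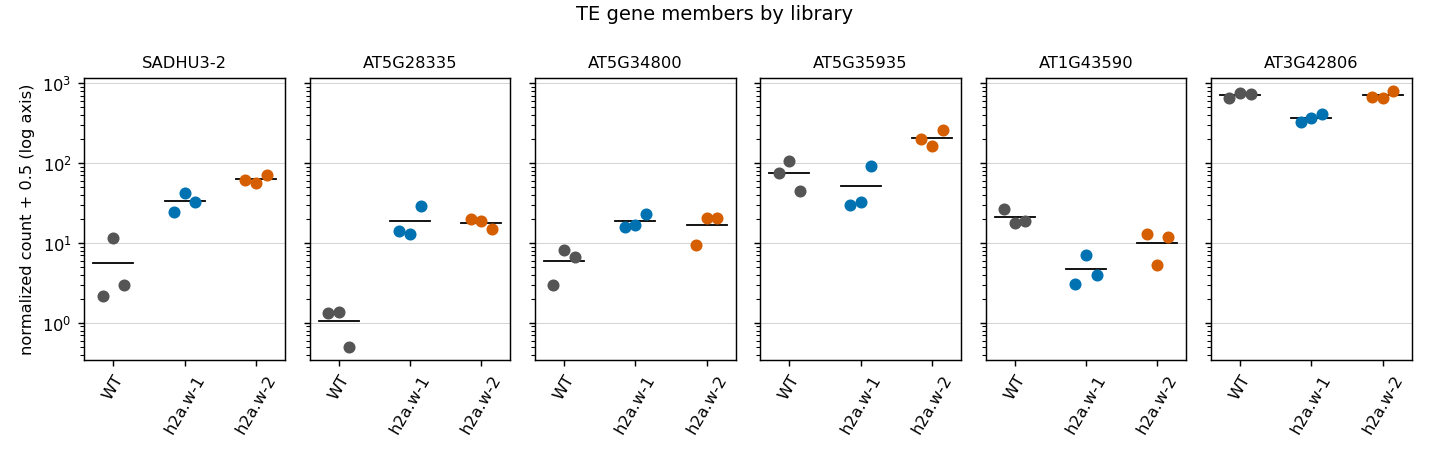
Normalized count plus 0.5 (log axis) of 6 TE genes in each library, with points for libraries A, B and C from left to right and a bar at the mean. SADHU3-2, AT5G28335 and AT5G34800 are higher in both mutants than in WT and AT5G35935 in h2a.w-2. AT1G43590 is lower in both mutants and AT3G42806 in h2a.w-1.

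As a class, TE genes of the runs took up a small share of the reads. Their reads summed to 408, 478 and 413 per 1000000 recovered reads (RPM) in WT, 405, 387 and 465 in h2a.w-1 and 536, 487 and 561 in libraries labelled h2a.w-2. The h2a.w-1 libraries overlapped those of WT, with means of 419 ± 40.8 and 433 ± 38.8 (SD, n = 3), and the h2a.w-2 libraries all stood higher, with a mean of 528 ± 37.7. Without SADHU3-2, AT5G28335 and AT5G35935, a choice made after their values were seen, the libraries labelled h2a.w-2 stood at 498, 457 and 520 and overlapped WT at 399, 462 and 407. TE genes elsewhere did not separate the genotypes, at 988 to 1167 RPM in WT, against 1050 to 1350 in h2a.w-1 and 1132 to 1170 in h2a.w-2.

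The TE genes of chromosome 3 stood lower in every h2a.w-1 library than in any WT library. They summed to 107, 124 and 121 RPM in WT, 74.8, 79.4 and 85.6 in h2a.w-1 and 129, 121 and 126 in libraries labelled h2a.w-2. Without AT3G42806, a choice made after its values were seen, the class on chromosome 3 stood at 25.1 ± 1.41 in WT. It stood at 32.7 ± 0.65 in h2a.w-1 and 36.0 ± 4.58 in h2a.w-2 (SD, n = 3). Every mutant library was then above every WT library, but this sum still holds SADHU3-2. That locus had 49 of the 179 reads in library C of h2a.w-2, against 2 of 160 in WT library C. Without SADHU3-2 as well, library C of h2a.w-2 falls below WT, while h2a.w-1 stays above it. On chromosome 5 the TE genes summed to 78.9, 104 and 81.5 RPM in WT, 92.4, 93.0 and 116 in h2a.w-1 and 124, 119 and 145 in h2a.w-2, and on chromosome 2 to 142, 154 and 125, then 152, 133 and 158, then 182, 156 and 194. On both, every h2a.w-2 library was above every WT library, while h2a.w-1 overlapped WT. On chromosomes 1 and 4 both mutants overlapped WT.

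Over all 628 TE genes, including those below the filter, the mean normalized count was higher than in WT for 229 and lower for 225 in h2a.w-1, and higher for 260 and lower for 202 in libraries labelled h2a.w-2. The 696 TE genes elsewhere showed 314 higher and 231 lower in h2a.w-1, and 318 higher and 238 lower in h2a.w-2. The 26 tested TE genes had a median log2 fold change of 0.15 in h2a.w-1 and 0.28 in h2a.w-2, against 0.09 and 0.11 over the 69 tested TE genes elsewhere. For the 22 tested TE genes of the runs with a WT level of at least 10, the medians were 0.09 and 0.21. The medians elsewhere are not limited by WT level.

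**Figure D4:**
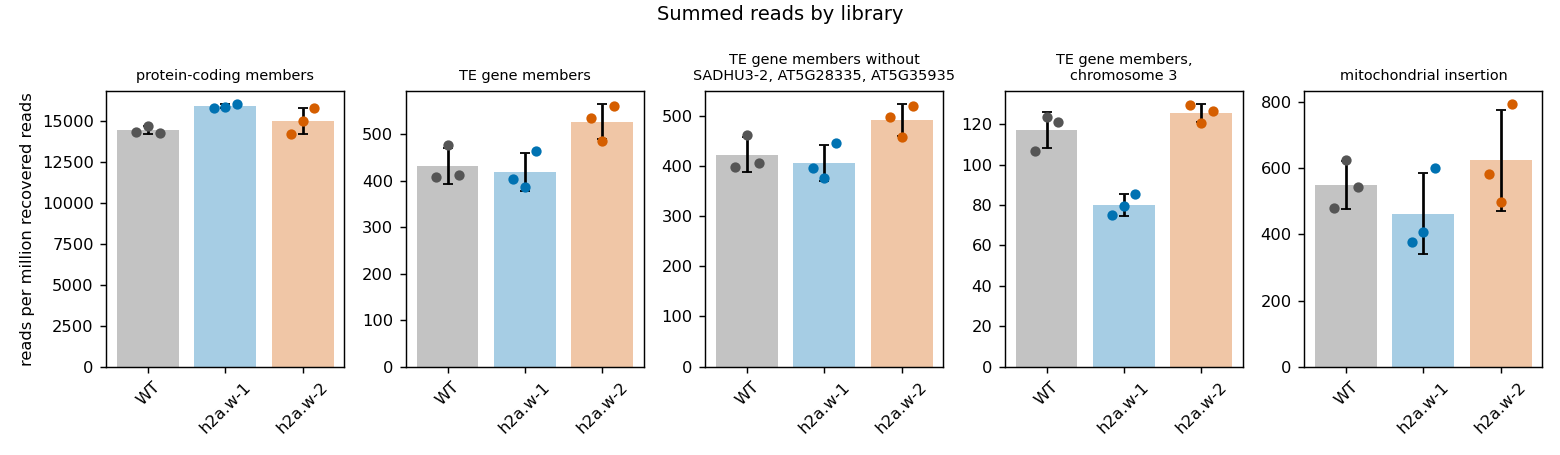
Reads per 1000000 recovered reads (RPM) summed over sets of loci, with points for libraries A, B and C, bars at the mean and error bars of 1 SD (n = 3 per genotype). The libraries labelled h2a.w-2 stand above WT for TE genes of the runs, at 487 to 561 against 408 to 478, and those of h2a.w-1 below WT for TE genes of chromosome 3.

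Protein-coding loci were called in h2a.w-1 in both directions, 5 higher and 11 lower against WT (6.56% of the 244 tested). Of the 18798 other protein-coding loci, 291 were called higher and 520 lower (4.31%). In libraries labelled h2a.w-2, 0 of the 244 were called, beside 0.165% of the other protein-coding loci. At an unadjusted p under 0.05 in limma voom, 28 of the 244 were higher and 11 lower in h2a.w-2, against 1302 higher and 1338 lower of the 18798 others. In h2a.w-1, 40 of the 244 were higher and 29 lower at that p, against 2962 and 2839 of the others. Among those called higher in h2a.w-1 was CCB3, a factor that attaches heme to the plastid cytochrome b6f complex. CCB3 had 120, 131 and 97 reads in WT, 325, 288 and 205 in h2a.w-1 and 115, 124 and 89 in h2a.w-2. Its log2 fold change in h2a.w-1 was 1.26 ± 0.13 (SE; limma voom adjusted p = 0.00067), and the groups did not overlap. AT2G12190, a cytochrome P450, had 14, 12 and 6 reads in WT, 74, 79 and 50 in h2a.w-1 and 15, 21 and 16 in h2a.w-2, a log2 fold change of 2.67 ± 0.30 in h2a.w-1 (adjusted p = 0.00099). Its mean WT normalized count was just below 10, so it is among the 13 tested loci that passed the filter only through the mutants. AT5G35480, an uncharacterized protein, had 45, 41 and 34 reads in WT, 150, 118 and 68 in h2a.w-1 and 39, 56 and 21 in h2a.w-2. AT5G28910, annotated as a fucosyltransferase, had 27, 23 and 7, then 47, 58 and 49, then 25, 24 and 15. The calls of these 4 loci in h2a.w-1 against WT held in all alternatives, and each was also called lower in h2a.w-2 than in h2a.w-1. Between the mutants the call of AT5G28910 was lost without library B or C of h2a.w-1 or any one library of h2a.w-2. Its limma voom adjusted p there reached 0.074.

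AT5G33370, a GDSL-type lipase, lay on opposite sides of WT in the mutants. It had 70, 46 and 52 reads in WT, 224, 203 and 96 in h2a.w-1 and 31, 25 and 3 in libraries labelled h2a.w-2. The groups did not overlap in any comparison. The log2 difference between the mutants was -3.26 ± 0.56 (SE; limma voom adjusted p = 0.0043) and held in all alternatives. Against WT it was 1.64 ± 0.35 in h2a.w-1 (adjusted p = 0.014) and -1.62 ± 0.60 in h2a.w-2 (adjusted p = 0.31). The call in h2a.w-1 was lost without WT library B, without library A of h2a.w-1 and under limma with a mean trend, with an adjusted p of up to 0.096. AT5G33365 overlaps this gene and may share its reads.

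Among protein-coding loci the largest falls in h2a.w-1 were those of MGD3 and FTM1. MGD3, a galactolipid synthase of phosphate-starved plants, had 4313, 973 and 838 reads in WT, 55, 83 and 636 in h2a.w-1 and 1841, 1508 and 976 in libraries labelled h2a.w-2. FTM1, a stearoyl-carrier protein desaturase, had 888, 276 and 580 reads in WT, 25, 103 and 42 in h2a.w-1 and 230, 360 and 368 in h2a.w-2. SUS4, a sucrose synthase that is induced by low oxygen, had 732, 207 and 463, then 96, 132 and 116, then 253, 329 and 291. ACS11, an ACC synthase, which makes the precursor of ethylene, had 103, 120 and 52, then 39, 21 and 3, then 83, 175 and 39. In each the h2a.w-1 libraries stood below all WT libraries, and the WT libraries themselves spread widely for MGD3, FTM1 and SUS4. The log2 fold changes were -3.49 ± 0.83 (SE) for MGD3, -3.44 ± 0.73 for FTM1, -1.83 ± 0.50 for SUS4 and -2.48 ± 0.72 for ACS11, with limma voom adjusted p of 0.021, 0.014, 0.035 and 0.045. None of these calls held throughout. That of MGD3 was lost without library A or B of h2a.w-1 (adjusted p up to 0.103) and that of FTM1 without library A of h2a.w-1 (0.059). The call of SUS4 was lost without WT library A or C or any one library of h2a.w-1 (up to 0.132), and that of ACS11 without any one library of WT or h2a.w-1 or library A of h2a.w-2 (up to 0.101). MGD3, FTM1 and ACS11 were also called higher in h2a.w-2 than in h2a.w-1, at 3.54, 2.83 and 2.61 on the log2 scale. These calls rest on the same h2a.w-1 libraries. That of MGD3 was lost without library A or B of h2a.w-1 (limma voom adjusted p up to 0.083). Without any one library of h2a.w-1 those of FTM1 and ACS11 were lost (up to 0.102 and 0.084). That of FTM1 was also lost without library C of h2a.w-2, and that of ACS11 in the fit of 6 libraries.

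Other loci that fell in h2a.w-1 were the transcription factor gene BZIP63, which acts in the response to low energy, the amino acid exporter-like gene UMAMIT17, the PLAC8-family gene AT5G35525, the terpenoid synthase AT3G32040, and AT1G43020, AT5G35110 and AT5G35732, which encode proteins of unknown function. BZIP63 had 389, 566 and 341 reads in WT, 185, 181 and 124 in h2a.w-1 and 420, 606 and 611 in libraries labelled h2a.w-2, a log2 fold change of -1.35 ± 0.29 (SE) in h2a.w-1 (limma voom adjusted p = 0.015; up to 0.057 over the alternatives, without WT library B or library A of h2a.w-1). AT5G35732 had 369, 325 and 270, then 181, 162 and 123, then 324, 327 and 237, and its log2 fold change of -1.01 ± 0.11 was just past the limit and under it with upper-quartile scaling. AT5G35525 had 31, 25 and 13, then 8, 3 and 1, then 43, 43 and 53. It was called in h2a.w-1 against WT at -2.58 ± 0.62 and between the mutants at 3.71 ± 0.59, the first lost without WT library B or library B or C of h2a.w-1, and the second kept in all alternatives. BZIP63 was also called between the mutants in all alternatives, at 1.86 ± 0.29. UMAMIT17 and its neighbour UMAMIT20, 3752 bases apart, were both below the WT range in all h2a.w-1 libraries, with log2 fold changes of -1.11 ± 0.25 and -0.85 ± 0.14. AT3G32040, AT1G43020 and AT5G35110 had -1.57 ± 0.40, -1.30 ± 0.33 and -1.66 ± 0.48. The calls of UMAMIT17, AT3G32040 and AT1G43020 were each lost without WT library B or C or library A or C of h2a.w-1. Their limma voom adjusted p reached 0.074, 0.114 and 0.118. The call of AT5G35110 was lost without WT library B or C, any one library of h2a.w-1 or library A of h2a.w-2. It was also lost under limma with a mean trend, and its adjusted p reached 0.155.

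A further 10 loci were called between the mutants without being called in h2a.w-1 against WT. Higher in libraries labelled h2a.w-2 were UMAMIT20, the RING-type gene AT3G43430, AT3G42800, the auxin-responsive SAUR-like gene AT1G43040, AT3G43110, the transcribed pseudogene AT4G08093 and the TE gene AT5G35935. Lower were DES1, a cysteine desulfhydrase, AT4G06534 and AT2G12462, which encodes a SAM-domain protein. AT3G43110 is the one whose groups overlapped, with 5, 3 and 35 reads in h2a.w-1 and 58, 39 and 35 in h2a.w-2. AT1G43040 had 9, 13 and 2 reads in WT, 4, 5 and 7 in h2a.w-1 and 25, 25 and 12 in h2a.w-2. AT2G12462 had 108, 87 and 85, then 178, 182 and 97, then 75, 72 and 19. AT2G12462 and AT5G35935 kept their calls in all alternatives, and the other 8 lost theirs in at least 1.

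Of the loci that passed the adjusted p in h2a.w-2 against WT, KNAT1 is the only one besides SADHU3-2, AT5G28335 and CHR38. KNAT1, a homeobox gene of the shoot meristem, had 128, 140 and 76 reads in WT, 167, 120 and 128 in h2a.w-1 and 211, 195 and 156 in libraries labelled h2a.w-2. All h2a.w-2 libraries stood above WT once scaled, and the log2 fold change was 0.88 ± 0.15 (SE; limma voom adjusted p = 0.044). The wood-formation gene TED6 had the smallest p among loci lower in h2a.w-2, at -0.59 ± 0.13 (adjusted p = 0.16).

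By role, 4 of the 5 genes of photosynthesis and the plastid had all h2a.w-1 libraries above all WT libraries, and limma voom called none of the 5 in any comparison. GAPB had 5997, 5740 and 3283 reads in WT, 9686, 8823 and 7720 in h2a.w-1 and 3438, 5944 and 3768 in libraries labelled h2a.w-2, a log2 fold change of 0.89 ± 0.21 (SE) in h2a.w-1 (limma voom adjusted p = 0.022). GS2, AGT1, which makes glycine in photorespiration, and HCF109, a plastid translation factor, also had all h2a.w-1 libraries above WT, at 0.52, 0.64 and 0.36 on the log2 scale, without passing the adjusted p, and GS2 and HCF109 had an unadjusted p of 0.0089 and 0.011. CAC2, a subunit of the plastid acetyl-CoA carboxylase, had 0.01. For comparison, 20.2% of all tested features had all h2a.w-1 libraries above all WT libraries. Outside the list, EGY1, a protease of the plastid membrane, and RPS1, a plastid ribosomal protein, passed the adjusted p in h2a.w-1 at 0.98 ± 0.15 and 0.66 ± 0.13. The shoot marker LHCB2.1 was also higher in h2a.w-1, as given above, and its part in these values was not tested.

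Together the 5 genes of that list, AGT1 included, summed to 2200 to 2618 RPM in WT, against 3582 to 3660 in h2a.w-1 and 1917 to 3401 in libraries labelled h2a.w-2. The 375 protein-coding loci with recovered reads summed to 14245 to 14714 RPM in WT, against 15775 to 16032 in h2a.w-1 and 14219 to 15778 in h2a.w-2. Without those 5 genes the ranges were 11940 to 12096, 12192 to 12372 and 12101 to 12377. Over these loci the h2a.w-1 and WT libraries still did not overlap. The gap between their means narrowed from 14428 ± 250 and 15893 ± 130 to 12027 ± 79.6 and 12278 ± 90.0 (SD, n = 3). UBQ10 and RPL3A are in neither sum, and their authors' means were lower in h2a.w-1 than in WT, as given above. A sum over every protein-coding locus is therefore not given.

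Of 6 genes of sugar and central metabolism, SUS4 and MGD3 were called lower in h2a.w-1 as described, and the median of the group was 0.03. Of 8 genes of transcription and chromatin, 7 were tested and BZIP63 alone was called, while TT2, a seed coat regulator, had 1 read in each of 2 libraries and 0 in the others. The transposase-derived DAYSLEEPER and the remodeller CHR5 had log2 fold changes of 0.24 ± 0.11 (SE) and 0.24 ± 0.13 in h2a.w-1. None of the 3 tested genes of protein synthesis, folding and turnover (BIP1, DDB1A and eIFiso4E) was called, nor any of the 6 of signalling and transport (SOS2, AHK2, PHYC, AHA8, MIN7 and TES). Their log2 fold changes lay between -0.09 and 0.26 in h2a.w-1 for the signalling genes and between 0.07 and 0.32 in h2a.w-2.

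By chromosome, 37, 46, 37, 55 and 121 loci were tested on chromosomes 1 to 5. In h2a.w-1 against WT, chromosome 1 had 0 higher and 3 lower, chromosome 2 had 1 and 1, chromosome 3 had 1 and 2, chromosome 4 had 0 and 2, and chromosome 5 had 7 and 4. Called in either direction were 8.11%, 4.35%, 8.11%, 3.64% and 9.09% of the tested loci, against 4.29%, 4.64%, 4.24%, 4.70% and 3.85% of the other loci of the same chromosomes, and a difference between chromosomes was not tested. The median log2 fold change in h2a.w-1 was 0.13 on chromosome 1, 0.05 on chromosome 2, 0.07 on chromosome 3, 0.05 on chromosome 4 and 0.07 on chromosome 5. In libraries labelled h2a.w-2 the medians were -0.01, 0.07, 0.13, 0.03 and 0.04, and both calls were on chromosomes 3 and 5. The other loci of each chromosome had medians between -0.02 and 0.01 in both mutants. The duplicated segment of h2a.w-1 lies on the arm of chromosome 1 and, by the study's description, not in the block analysed here.

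**Figure D5:**
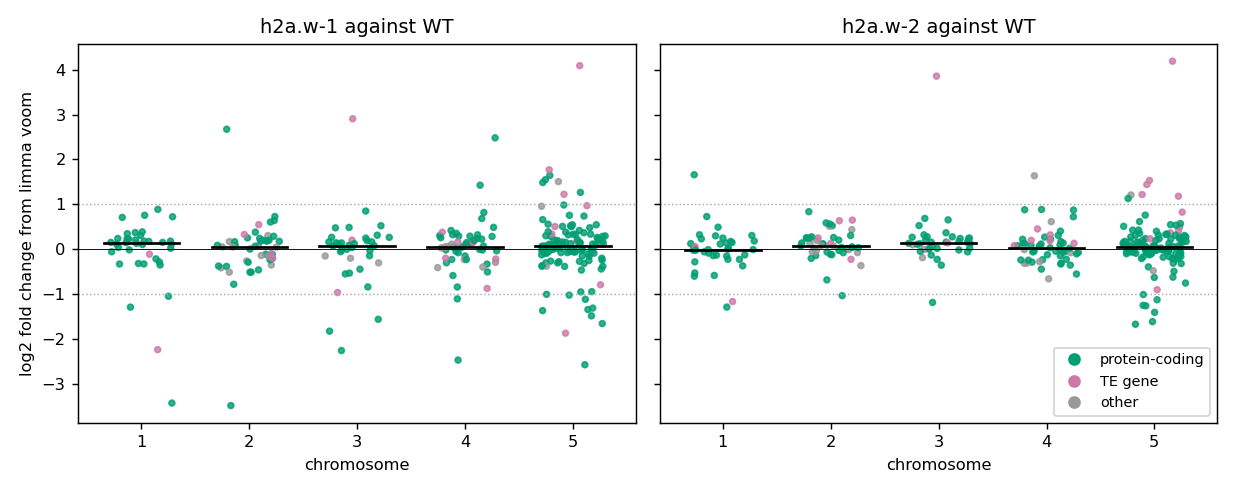
Log2 fold change (limma voom) of the 296 tested loci by chromosome, in h2a.w-1 and in libraries labelled h2a.w-2 against the same WT libraries, coloured by class with black bars at the median and dotted lines at the fold limit of 1. Medians lie between -0.01 and 0.13, and SADHU3-2 on chromosome 3 and AT5G28335 on chromosome 5 stand highest in h2a.w-2.

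By WT level, calls were made in every tested class. Over all features 4.35% were called in either direction in h2a.w-1 and 0.198% in h2a.w-2. Of 163 tested loci at 100 to under 1000 in WT, 1 was called higher and 5 lower in h2a.w-1 (3.68%). None of these was called in libraries labelled h2a.w-2, and the medians were 0.08 and 0.04. At an unadjusted p under 0.05 in limma voom, 19 of these 163 were higher and 5 lower in h2a.w-2, beside the 7.12% and 6.95% of all features. In h2a.w-1, 26 were higher and 17 lower at that p, beside 15.6% and 14.9%. Of 97 tested loci at 10 to under 100, 3 were called higher and 6 lower in h2a.w-1 (9.28%). Of the 23 tested loci at 1000 or above, MGD3 alone was called (4.35% in h2a.w-1). The 13 tested loci below 10 in WT include 5 of the 9 loci called higher in h2a.w-1 and both of those in h2a.w-2, and they passed the filter only through the mutants, as said above. Without respect to calls, all libraries stood above WT for 68 of 296 loci in h2a.w-1 (23.0%, against 20.2% of all features) and for 49 in h2a.w-2 (16.6%, against 10.2%). All stood below WT for 38 loci in h2a.w-1 (12.8%, against 18.5%) and for 22 in h2a.w-2 (7.43%, against 10.3%). These shares include the 13 loci that passed the filter only through the mutants. Of the 283 tested loci at 10 or more in WT, 62 stood above WT in h2a.w-1 (21.9%) and 41 in h2a.w-2 (14.5%). Those below WT were 38 (13.4%) and 22 (7.77%).

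The loci of chromosome 2 numbered up to AT2G07835 include a large insertion of mitochondrial DNA, where reads of the organelle may be counted. Of these 34 loci 14 were tested and 0 were called in h2a.w-1 or in h2a.w-2 against WT. At an unadjusted p under 0.05 in limma voom 3 were lower in h2a.w-1, where 14.9% of all features were lower, 0 passed in h2a.w-2, and 4 were higher in h2a.w-2 than in h2a.w-1, where 16.7% of all features were higher. The log2 fold change was below 0 for 13 of the 14 in h2a.w-1 (median -0.31), above 0 for 10 in h2a.w-2 (median 0.08) and above 0 for 12 between the mutants (median 0.47). These loci may share the reads of one organelle and are not independent. The highest, AT2G07711, a transcribed copy of a NADH dehydrogenase gene, had 1626, 2044 and 1190 reads in WT, 1264, 1170 and 1420 in h2a.w-1 and 1676, 1450 and 1684 in libraries labelled h2a.w-2. Over the insertion the sum was 479 to 625 RPM in WT, against 378 to 603 in h2a.w-1 and 497 to 795 in h2a.w-2, and the groups overlapped. The 18S ribosomal RNA locus AT3G41768 had 203, 602 and 196 reads in WT, 167, 201 and 537 in h2a.w-1 and 263, 303 and 279 in h2a.w-2, which varied within genotypes by more than between them after ribosomal RNA depletion.

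Factors that act on heterochromatin and lie outside these runs were checked beside the loci. Of 20 such genes, 0 were called in either mutant, and by adjusted p alone NRPE1 and RDR2, of RNA-directed DNA methylation, passed in h2a.w-1 at 0.59 ± 0.14 (SE) and 0.57 ± 0.13 (limma voom adjusted p = 0.022 and 0.019). ROS1, a DNA demethylase, had 996, 1162 and 736 reads in WT, 955, 846 and 823 in h2a.w-1 and 556, 530 and 293 in libraries labelled h2a.w-2. Its log2 fold change in h2a.w-2 was -0.93 ± 0.11 (adjusted p = 0.011), just short of the fold limit, and all h2a.w-2 libraries stood below WT. MET1, CMT2, CMT3, DRM2 and DDM1 did not pass the adjusted p in either mutant against WT. The study describes CMT3 as duplicated in h2a.w-1 and reports more CMT3 mRNA there by RT-qPCR. For 9 of the 20 genes all h2a.w-1 libraries stood above WT, and for 1 all stood below. Over all features these shares were 20.2% and 18.5%.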

How the data were processed

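The RNA-seq tables alone were used, and samples of the other assays were not analysed here. Per the methods and the submitters' processing notes, reads were trimmed with Trim Galore 0.5.0, aligned to TAIR10 with STAR (its version differs between these sources), stripped of duplicates, counted on Araport11 with HTSeq and, by the authors, compared with DESeq2. The strand option of the counting is not given in the sources used here. The authors deposited, for each genotype, a mean normalized count over 3 libraries, which is a signal and not a count. Their log2 fold changes, standard errors, test statistics, p-values and adjusted p-values were left out as the authors' own comparisons.

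Such a mean is a sum of whole reads weighted by size factors, and reads by library were recovered by searching for the only fitting set, for means up to 12000. This succeeded for 29881 of 29961 features (99.733%), which hold 88.4% to 89.7% of the summed means, and for 2000 of 2000 simulated ones. Limma 3.58.1 (voom, R 4.3.3) was run on the 9 libraries together with median-ratio size factors, for features averaging 10 or more normalized counts, and p-values were adjusted by Benjamini-Hochberg over 19649 features. The fit was tested on simulated data. Classes, positions and sequences came from RefSeq for TAIR10.1, and blocks end at gaps over 500 kb. Sums are in reads per 1000000 recovered reads and carry no test, and floors cover counting error only. Alternatives were other scalings, no filter, limma with a mean trend, fits of 6 libraries, other thresholds and each library left out. Loci were named if called, among the 10 smallest p of a comparison, at the floor in 1 genotype, among the 3 highest in WT per chromosome, or on fixed lists. Loci and lists were chosen with earlier results of these data known.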

Additional observations from a re-analysis of the deposited data

How the results depend on the processing

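Every called locus kept its direction in every alternative. In h2a.w-1 against WT, 21 loci were called, 6 of them in all alternatives that tested them, and the count was 32 with no filter on low counts, 42 with no limit on the fold change and 9 to 22 when each library was left out. The 6 include SADHU3-2, AT5G28335 and AT2G12190, which passed the filter of the main fit only through the mutants. In libraries labelled h2a.w-2 against WT, 2 were called, and the count was 0 when only the 6 libraries compared were fitted, 4 with no limit on the fold change and 0 to 2 when each library was left out. Between the mutants, 23 were called, 8 of them in all alternatives, with 46 under no limit on the fold change and 14 to 23 when each library was left out. The cause of these shifts was not tested, beyond that a looser threshold admits more loci. Keeping only loci inside the blocks, an alternative chosen after seeing the data, left 21, 2 and 23 calls.

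Over the 1228 loci with recovered reads, without UBQ10 and RPL3A, sums per 1000000 recovered reads were 15499 ± 346 in WT. They were 16885 ± 288 in h2a.w-1 and 16183 ± 872 in h2a.w-2 (SD, n = 3). Leaving out each library gave 15299 to 15602, 16722 to 16998 and 15712 to 16572, and without the 18S rRNA and the mitochondrial insertion the means were 14910 in WT and 16381 in h2a.w-1. For TE genes leaving out each library gave 411 to 445, 396 to 435 and 511 to 548.

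No paired analysis was possible because the deposited columns carry no replicate numbers. Of the 628 TE genes, 26 reached the count needed for a test, and the others were not tested under that filter. The part of sequencing depth in this was not tested.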
